A study of Glycine max with 15 samples.

Results

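Transcript levels of soybean (Glycine max, cultivar Williams 82) seedlings given the inhibitor propiconazole (Pcz) together with a low dose of brassinolide (BL) were compared with those of mock-treated seedlings. The comparison covered every gene that reached 1 FPKM (fragment counts scaled by transcript length and by library size) in either group, which were 31760 of the 54175 gene IDs in the table. The group named Pcz-lowBL was irrigated with 5 mM Pcz and 10 nM BL, and the control group was mock treated. Both were seedlings 10 days old at the first vegetative stage (V1), with 3 libraries each out of 15 libraries in 5 groups. The other groups had the same dose of Pcz alone (Pcz), or the same dose of Pcz and a high dose of BL, 1 mM, lasting 1 h (Pcz-BL-1h) or 8 h (Pcz-BL-8h). All doses are as the labels state them. No group was given BL without Pcz, so an effect of BL by itself cannot be told apart here. Separate plants or pots are not named for the libraries, so the authors' p-values may measure technical spread only.

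Brassinosteroids are plant steroid hormones that promote cell elongation and division, and BL is the most active of them. They are perceived at the cell surface by the receptor kinase BRI1 with its co-receptor BAK1, which leads to inactivation of the kinase BIN2 and lets the transcription factors BZR1 and BES1 act on growth genes. Pcz is a triazole that blocks cytochrome P450 enzymes of brassinosteroid synthesis, and it is used as a fungicide against the sterol demethylase of fungi. A plant given inhibitor and hormone together has its own synthesis blocked and an outside supply of BL.

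The values come from a Cuffdiff table with 1 pooled FPKM value per group, so libraries cannot be shown singly. The spread between them enters only through the Cuffdiff test that the authors ran. The table was assigned to Pcz-lowBL by its sheet name, Pcz-BL, which the labels of these samples cite. Its column header names another group, Pcz-BL-1h. The header Pcz-BL stands on the sheet named Pcz-BL-8h, and the header Pcz-BL-8h on the sheet named Pcz-BL-1h. All results below, those of the high-BL groups included, therefore depend on the sheet names being right. None of the 54175 IDs matched the reference gene table used here (0 of 54175), and no name stands beside an ID in the tables. Genes of the hormone pathway, of photosynthesis or of any other function could not be identified, and the tissue could not be checked against marker genes. Whether a lower level reflects fewer cells of a type or less RNA per cell cannot be told apart in seedlings taken entire.

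More genes were lower than higher in Pcz-lowBL, and the lower genes reached larger changes on the scale of FPKM + 1. Of 31697 members tested, 4383 were called higher and 7478 lower at a q of 0.05 or less (the authors' Cuffdiff test, adjusted over all tested IDs), against 13.4% higher and 22.8% lower (36.2% called in all) among the 35343 IDs tested in the whole table. Among members these shares were 13.8% and 23.6%, so the filter at 1 FPKM moved them little. Genes called higher had a median of 7.22 FPKM in Pcz-lowBL and 2.53 FPKM in control, with a median log2 ratio of 0.99 (on FPKM + 1, as all log2 ratios here unless stated). Genes called lower had a median of 4.57 FPKM in Pcz-lowBL and 11.4 FPKM in control, with log2 ratios between -1.47 and -0.73 at the quartiles. The 19836 genes that were tested and not called had medians of 5.87 and 5.95 FPKM in Pcz-lowBL and control.

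On the scale of FPKM + 1, the excess of lower genes grew with the size of the change. At 2-fold or more, 2379 members were higher and 3984 lower; at 8-fold or more, 117 were higher and 276 lower; at 16-fold or more, 25 were higher and 94 lower. The ratio of lower to higher genes was 1.67, 2.36 and 3.76 at these 3 sizes. Beyond 32-fold there were 3 higher and 40 lower members, and 2 of those 3 were not tested. The median log2 ratio over all members was -0.11. Relative to that median, 2791 members were 2-fold higher and 3380 lower, and 29 and 83 were 16-fold higher and lower. With calls taken from the test statistic and fold changes centred on their median, 2237 were higher and 2872 lower. Adding 1 FPKM understates changes from low levels, and genes called higher started lower (control medians 2.53 and 11.4 FPKM). At 2-fold, the lower share was 60.8% with 0.1 FPKM added, 62.6% with 1 and 67.4% with 5. In the authors' short list, with nothing added and log2 fold changes of at least 2, the medians were 2.83 for higher and -2.77 for lower genes. Lower genes made up 61.7% of that list. They made up 63.0% of all calls among members, and 61.9% of calls with a 2-fold minimum and nothing added. Without a pseudocount, the lower share therefore did not grow with the size of the change at these limits.

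**Figure D1:**
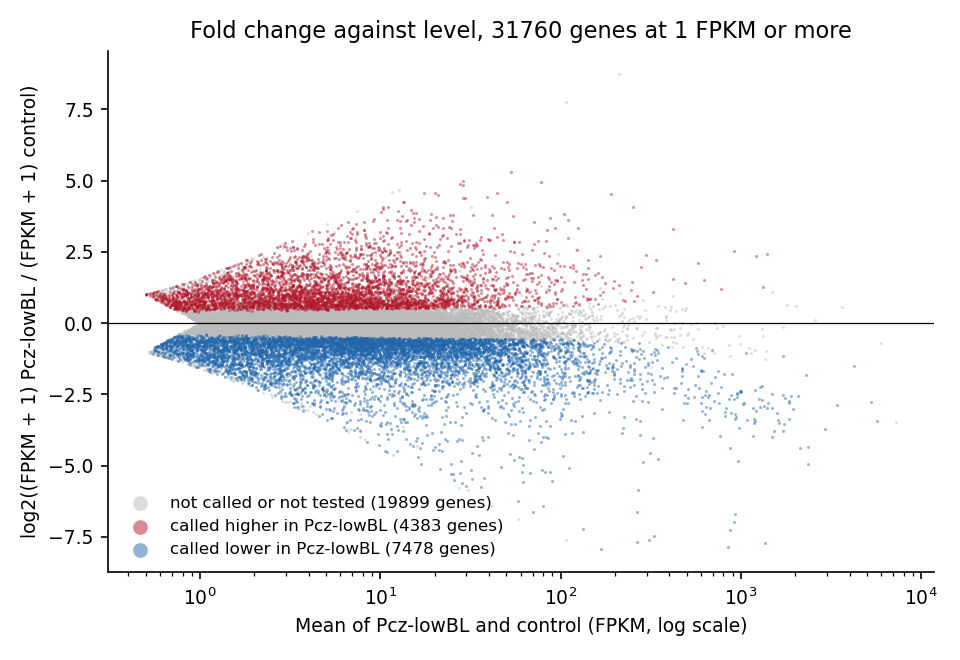
Log2 ratio of FPKM + 1 (Pcz-lowBL over control, vertical axis) against the mean FPKM of both groups (log scale, horizontal axis) for the 31760 genes at 1 FPKM or more; each point is 1 gene, coloured by the authors' test. Lower genes reach ratios near -7.9, while tested higher genes end near 5.3, and 2 grey points above them are the genes that could not be tested.

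Calls followed the size of the change. No member with an absolute log2 fold change under 0.5 was called (0 of 10326 under 0.3 and 0 of 5041 between 0.3 and 0.5), and the smallest fold change called was 0.54. Between 0.6 and 0.7, 49.7% of 1624 members were called, and between 1 and 1.5, 88.4% of 3428. These fold changes are without a pseudocount. The standard error, taken as the absolute ratio of fold change to test statistic, had a median of 0.472 over members. This value and the authors' q can disagree. A normal p of each test statistic called 1953 higher and 3412 lower members, against 4383 and 7478 with the authors' q. In the table of Pcz alone, Glyma14g26450 had a log2 fold change of 0.0089 and a standard error of 0.00188. Its q in the authors' deposited table was 0.989. Standard errors here therefore describe the test statistic and do not by themselves give the calls. Of members that differed by 2-fold or more, 203 higher and 235 lower ones were not called. A standard error could be had for 177 and 207 of these, those tested and not listed at 0 in a group, with medians of 1.58 and 1.75. Among the called members of this size the medians were 0.568 over 2133 higher and 0.508 over 3728 lower genes. A gene that was not called is therefore not shown to be unchanged. Of the 11861 calls, 5546 (46.8%) stood at the smallest p the table holds, 5e-05, so their order by p cannot be read.

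The 2 genes with the highest and the 2 with the lowest called ratios differed in their levels in the other groups. Glyma13g38240 (chromosome 13, 39076465 to 39077340, genome build not given in the sources used here) had 104 FPKM in Pcz-lowBL and 1.65 FPKM in control in the authors' deposited table, a log2 ratio of 5.31 (63.2-fold on the FPKM themselves, standard error 0.686 on the log2 scale, q = 0.000314). Its level was 10.7 FPKM in Pcz, where the authors' deposited table also called it higher (control 1.21 FPKM, q = 0.000188). It stood at 0.917 FPKM in Pcz-BL-1h and 1.76 FPKM in Pcz-BL-8h, and neither authors' deposited table called it (q = 0.124 and 0.561; control 1.65 and 1.37 FPKM). Its highest level was in Pcz-lowBL. The loci on either side of it were at 0.0164 and 0.327 FPKM in Pcz-lowBL and 0.234 and 0.0533 FPKM in control, and were not tested. Whether Pcz-lowBL and Pcz differ for this gene was not tested, since their tables were normalised separately.

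Glyma10g33650 (chromosome 10, 41955568 to 41956774) had 56.8 FPKM in Pcz-lowBL and 0.842 FPKM in control in the authors' deposited table, a log2 ratio of 4.97 (q = 0.000314, standard error 0.719). It was called higher in each of the other authors' deposited tables as well, at 27.9 FPKM in Pcz, 11.4 FPKM in Pcz-BL-1h and 1.79 FPKM in Pcz-BL-8h, against control values of 0.731, 0.844 and 0.703 FPKM in those tables. Its nearest neighbours on the chromosome were not called. The next gene after it had 6.03 FPKM in Pcz-lowBL and 6.27 FPKM in control in the authors' deposited table (q = 0.894), and the gene before it was not tested, at 0.0330 and 0.0412 FPKM.

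Glyma08g08761 (chromosome 8, 6264864 to 6267352) had 0.396 FPKM in Pcz-lowBL and 336 FPKM in control in the authors' deposited table (log2 ratio -7.92, q = 0.0135, standard error 1.27). Here both neighbours were called lower too. The gene that starts 1310 bp after its end fell to 818 FPKM in Pcz-lowBL, against 5981 FPKM in control, in the authors' deposited table (log2 ratio -2.87, q = 0.000314). The gene before it had 50.6 FPKM in Pcz-lowBL and 74.3 FPKM in control in the authors' deposited table (log2 ratio -0.54, q = 0.0493). Glyma08g08761 itself stood at 0.496 FPKM in Pcz, 65.9 FPKM in Pcz-BL-1h and 145 FPKM in Pcz-BL-8h, below the control of each authors' deposited table (302, 337 and 277 FPKM).

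Glyma15g06270 (chromosome 15, 4414045 to 4415252) had 6.30 FPKM in Pcz-lowBL and 1678 FPKM in control in the authors' deposited table (log2 ratio -7.85, q = 0.000314, standard error 0.901). In Pcz it was at 1.40 FPKM, against 1382 FPKM in control (log2 ratio -9.17, q = 0.000188 in the authors' deposited table). In Pcz-BL-1h it was called lower at 923 FPKM in the authors' deposited table (control 1685 FPKM, q = 0.0161). In Pcz-BL-8h, at 2301 FPKM against 1374 FPKM in control, it was not called in the authors' deposited table (q = 0.0632). The genes on either side of it, at 5.01 and 9.57 FPKM in Pcz-lowBL and 8.32 and 8.49 FPKM in control, were not called in the authors' deposited table (q = 0.166 and 0.673).

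The share of lower genes was larger at higher levels. Genes were sorted by their mean over the high-BL groups (Pcz-BL-1h, Pcz-BL-8h), whose libraries enter neither side of the comparison, so that a high value in control or in Pcz-lowBL did not decide the bin. Among 228 tested members at 300 FPKM or more by this measure, 156 (68.4%) were lower in Pcz-lowBL and 16 (7.02%) higher, with a median log2 ratio of -2.10. From 50 to 100 FPKM, 52.3% of 1067 were lower and 6.37% higher (median -0.59). From 5 to 10 FPKM, 23.4% of 6825 were lower and 10.6% higher (median -0.13). Under 1 FPKM the majority turned, with 31.5% of 3049 higher and 9.18% lower (median 0.35). Members of that lowest bin had to reach 1 FPKM in Pcz-lowBL or control while low elsewhere, so their large changes are in part set by the choice of members. The standard error there had a median of 0.747, against 0.415 to 0.439 from 5 to 50 FPKM.

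The same sorting on the mean of Pcz-lowBL and control gave the same order at high levels. At 300 FPKM or more, 153 of 234 tested members (65.4%) were lower and 12 higher. Below 2 FPKM, lower genes were the larger part with this measure, with 28.9% lower and 24.6% higher under 1 FPKM, so the turn to higher genes among weakly expressed ones depends on how the level was taken. In the table of Pcz alone, which shares the control libraries, the median log2 ratios of the same genes were -2.87 at 300 FPKM or more, -0.51 from 50 to 100 FPKM, -0.00 from 5 to 10 FPKM and 0.14 under 1 FPKM by the first measure.

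**Figure D2:**
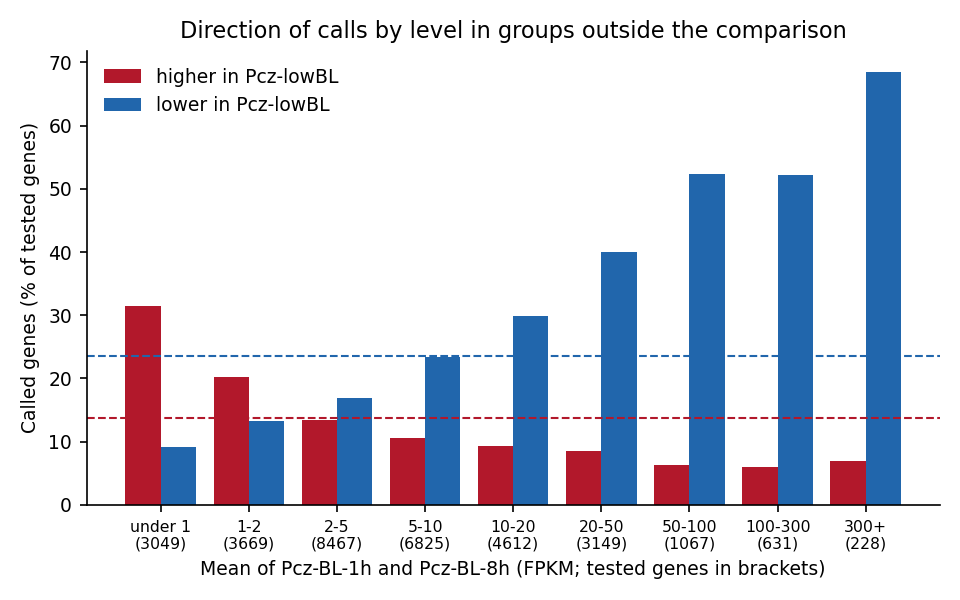
Share of tested members called higher (red) or lower (blue) in Pcz-lowBL, in percent (vertical axis, from 0), by mean FPKM of the high-BL groups (horizontal axis, number tested in brackets); dashed lines are the shares over all tested members, 13.8% and 23.6%. The share of lower genes is largest at 300 FPKM or more, at 68.4%, while that of higher genes is largest under 1 FPKM at 31.5%.

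The most abundant transcripts of control seedlings were mostly lower in Pcz-lowBL. Of the 100 members with the highest level in control, 96 were below control in Pcz-lowBL, 88 of them by 2-fold or more, and 84 were called lower and 0 higher, with a median log2 ratio of -2.80. Ranking on control favours lower values, so the 100 genes most abundant in the high-BL groups were also taken: 74 were called lower and 4 higher, with a median log2 ratio of -2.67. In the table of Pcz alone the medians of these sets were -3.50 and -3.40. Of the 100 genes most abundant in Pcz-lowBL itself, 29 were called lower and 17 higher, although this ranking favours higher values.

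The summed FPKM was spread over more genes in Pcz-lowBL. At 1000 FPKM or more stood 19 genes in Pcz-lowBL and 111 in control, and at 100 FPKM or more 576 genes in Pcz-lowBL and 969 in control. The 100 most abundant genes of each group held 16.4% of the summed FPKM in Pcz-lowBL and 30.7% in control. To reach 50% of the sum took 1950 genes in Pcz-lowBL and 535 in control. The sum itself was 491555 FPKM in Pcz-lowBL and 819112 FPKM in control, a ratio of 0.600. Genes at 100 FPKM or more in a group summed to 162845 FPKM in Pcz-lowBL and 464227 FPKM in control, while genes under 100 FPKM summed to 328709 and 354885 FPKM. In the table of Pcz alone the sums over all IDs were 575277 FPKM in Pcz and 824749 FPKM in control. FPKM is corrected for transcript length, so these sums weight short transcripts more than a count of reads would, and no replicate value of a sum was analysed here.

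**Figure D3:**
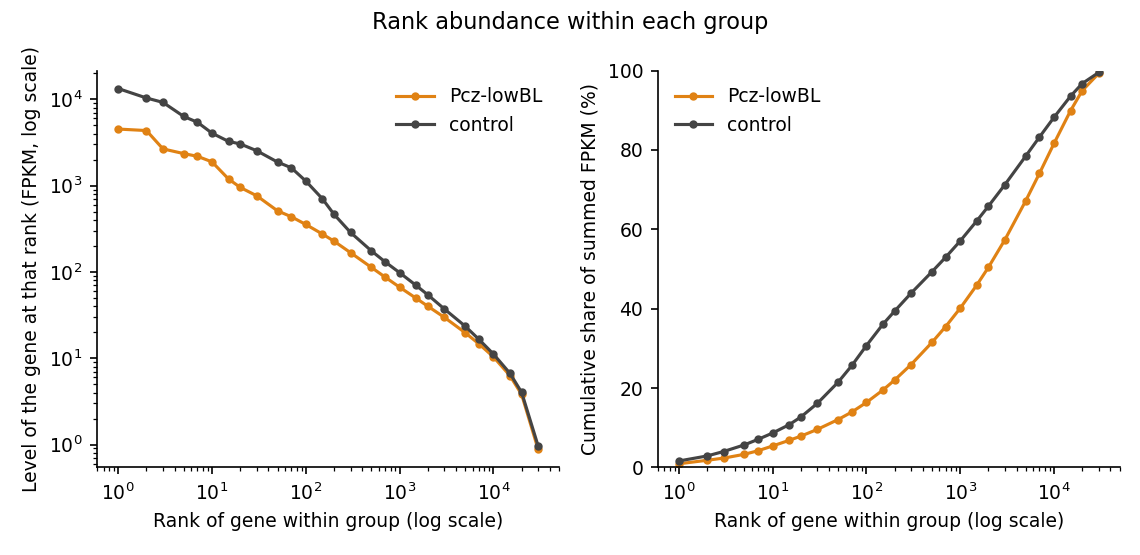
Left, level (FPKM, log scale) of the gene at each rank in Pcz-lowBL (orange) and control (dark grey), ranked within each group (log scale); right, the cumulative share of the summed FPKM in percent. At rank 100 the cumulative share is 16.4% in Pcz-lowBL and 30.7% in control, and at rank 10000 the level is 10.4 FPKM in Pcz-lowBL and 11.2 FPKM in control.

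The transcript with the highest level in control was not called. Glyma13g07610 (chromosome 13, 7807012 to 7808518), chosen for its level in control, had 1192 FPKM in Pcz-lowBL and 13309 FPKM in control in the authors' deposited table (log2 ratio -3.48), but its standard error was 2.11 and its q 0.277. In the authors' deposited table of Pcz alone it had 466 FPKM in Pcz and 13184 FPKM in control and was called lower (q = 0.0414). On chromosome 19, Glyma19g06340 and Glyma19g06370 carry the status HIDATA, with which Cuffdiff marks loci of too many fragments to be analysed, in each of the 4 tables. They are listed at 215 and 423 FPKM in Pcz-lowBL and at 0 in control, and at 0 in both columns of both high-BL tables, so a listed 0 there is no measured absence. These are the 2 untested genes beyond 32-fold, and no fold change was read from them. The transcript with the highest level in Pcz-lowBL, Glyma14g26450 (chromosome 14, locus of 115 bp), had 4516 FPKM in Pcz-lowBL and 7387 FPKM in control and was not called in the authors' deposited table (q = 0.160).

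From 1000 bp of locus span upwards, shorter genes were called more often. Among members whose locus, introns included, spans 1000 to 2000 bp, 33.6% of 4036 tested were lower and 17.0% higher in Pcz-lowBL. From 4000 to 8000 bp, 20.6% of 11489 were lower and 12.7% higher, and from 16000 bp on, 7.58% of 778 were lower and 13.5% higher. The share of lower genes fell with span from 1000 bp up, while that of higher genes varied less. The standard error was also smaller at longer spans, with medians of 0.575, 0.449 and 0.420 in these 3 bins, and the median of the mean FPKM was 4.58, 6.64 and 6.48. From 500 to 1000 bp, 45.6% of 1341 were called in either direction, against 50.6% from 1000 to 2000 bp. Loci under 500 bp had the largest standard error (median 0.978) and fewer calls, with 13.1% of 464 lower and 9.05% higher.

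The 20 chromosomes differed little. By chromosome, 19.4% (chromosome 20) to 25.7% (chromosome 5) of tested members were lower and 11.1% (chromosome 5) to 16.8% (chromosome 16) higher, with median log2 ratios between -0.15 and -0.06. Where genes were sparse, at 64 IDs or fewer within 500000 bp on either side, 20.7% of 6424 tested members were lower and 14.7% higher, against 25.1% and 13.5% of 6076 where 125 or more IDs lay in the same distance. The median of the mean FPKM was 5.44 in the sparse and 6.73 in the dense regions.

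Neighbouring genes shared a direction more often than the share over all genes, with the larger excess among higher genes, a description with no test. Of 4367 genes called higher with a tested member next to them on the chromosome, 936 (21.4%) were followed by another higher gene, against 13.8% higher over all 31609 tested members on chromosomes. At the second step the share was 16.5%, and by the tenth 14.4%. Of 7455 genes called lower, 27.1% were followed by another lower gene, against 23.6% over all members, and at the second step 24.7%. The steps pass over genes that are no members or were not tested. The shares for the next gene were 21.5% and 27.7% when loci that overlap another were left out. With gaps of 2 to 5 kb between loci the next gene was also higher in 24.8% of 730 cases, where 12.4% of the first genes of such pairs were higher. With gaps of 10 to 20 kb it was higher in 19.2% of 829 cases, where 14.9% of first genes were. With gaps of 20 to 50 kb it was higher in 22.6% of 769 cases, where 16.6% of first genes were. With gaps over 50 kb it was higher in 103 of 468 cases, where 15.3% of first genes were. The excess was thus largest at 2 to 5 kb and smaller at wider gaps, but beyond 5 kb it did not decline steadily with distance.

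**Figure D4:**
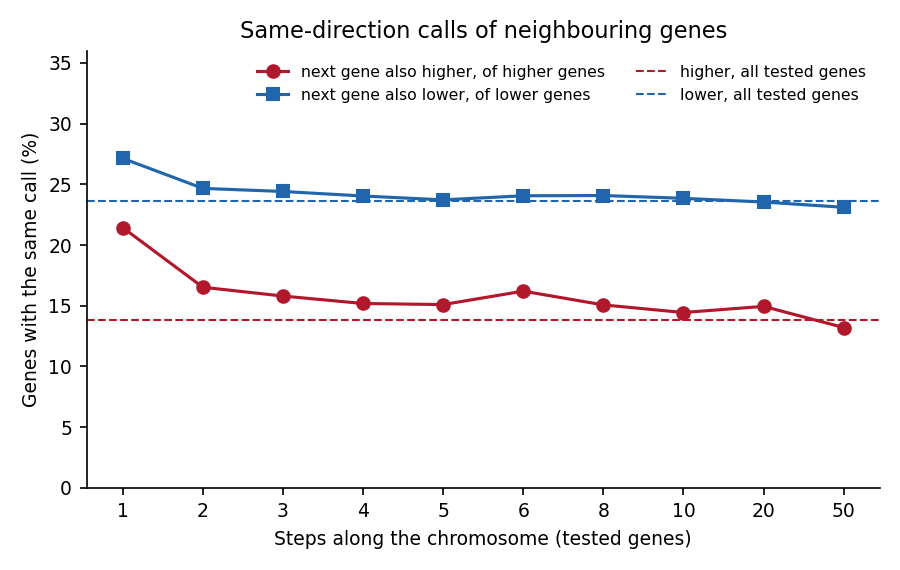
Share of genes with the same call (percent, vertical axis) at 1 to 50 steps along the chromosome, counted in tested members, for higher (red circles) and lower genes (blue squares); dashed lines are the shares over all tested members on chromosomes. Both curves are highest at the first step, at 21.4% and 27.1%, and lie close to the dashed lines by step 10.

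Uninterrupted runs of tested members with the same call reached 16 genes for higher and 9 for lower genes. There were 153 runs of 3 or more higher genes, holding 552 genes (12.6% of the higher ones), and 407 runs of 3 or more lower genes, holding 1377 (18.5%). Lower calls were more common to begin with, at 23.6% of tested members on chromosomes against 13.8% for higher calls. The run counts therefore do not show which direction was more clustered. Among runs of 6 or more there were 8 of each direction. The runs described next were chosen for their length after the values were seen and carry no test.

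The 2 longest runs lay side by side on chromosome 16, from 32337759 to 32864802, a stretch of 527 kb with 44 IDs. Of its 29 members, 28 were tested, 27 were called higher in Pcz-lowBL and 0 lower. The control median of the 29 was 0.727 FPKM, so most reached 1 FPKM only through Pcz-lowBL and could not have come out lower. The count of 27 against 0 is therefore in part set by the choice of members. Tested IDs of the stretch under 1 FPKM in both groups, left out here, included some called higher and some not called. Over the 29 members the median log2 ratio was 1.22, with a range of 0.04 to 3.25. The run of 16 genes had a median of 4.21 FPKM in Pcz-lowBL and 0.774 FPKM in control, and the run of 11 genes 2.64 FPKM in Pcz-lowBL and 0.551 FPKM in control. The highest level belonged to the gene 179 kb into the stretch, which had 152 FPKM in Pcz-lowBL and 48.5 FPKM in control. The largest ratio belonged to the gene before it, at 172 kb, with 15.5 FPKM in Pcz-lowBL and 0.729 FPKM in control. The 1 tested member without a call, at 205 kb, had 4.03 FPKM in Pcz-lowBL and 3.89 FPKM in control and separated the runs of 11 and 16 genes. No loci of this stretch overlap each other.

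In the other groups calls among these 29 genes went in both directions. In the table of Pcz alone 15 were tested, 6 higher and 6 lower, with medians of 0.467 FPKM in Pcz and 0.531 FPKM in control. In Pcz-BL-1h 25 were tested, 14 called higher and 2 lower, with medians of 1.73 FPKM in that group and 0.728 FPKM in control. In Pcz-BL-8h 19 were tested, 6 higher and 4 lower, with medians of 0.476 FPKM in that group and 0.606 FPKM in control. The members of this stretch were chosen on Pcz-lowBL, so their counts elsewhere are set beside it as a description. Neighbouring genes can be near-identical copies that share reads, which was not tested, since no sequence of these IDs was used here.

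**Figure D5:**
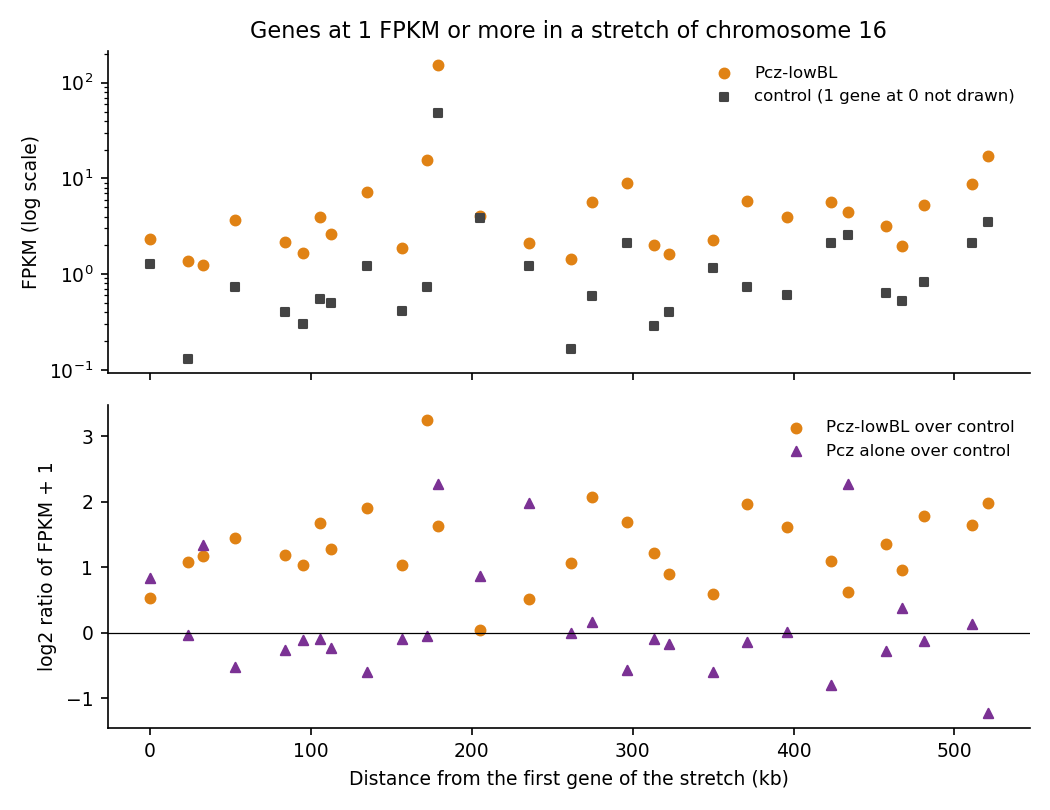
Members in the stretch of chromosome 16 by distance from its first gene (kb): top, FPKM (log scale) in Pcz-lowBL (orange circles) and control (dark grey squares; 1 gene at 0 is not drawn); bottom, log2 ratio of FPKM + 1 to control for Pcz-lowBL (orange circles) and Pcz alone (purple triangles). The Pcz-lowBL ratios lie above 0 at each of the 29 genes, with a median of 1.22, while the Pcz ratios scatter around a median of -0.10. Members under 1 FPKM in control lie above 0 in Pcz-lowBL by the choice of members.

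Other runs of higher genes lay on further chromosomes. On chromosome 13, from 11291840 to 11435045, 10 genes had a median of 4.98 FPKM in Pcz-lowBL and 1.60 FPKM in control (median log2 ratio 1.38), and 8 of them were called higher in the table of Pcz alone. On chromosome 20, from 34968049 to 35084919, 9 genes had medians of 5.15 and 0.494 FPKM in Pcz-lowBL and control, and 4 were called higher in Pcz. On chromosome 17, from 36283402 to 36372571, 7 genes had medians of 11.4 and 1.39 FPKM in Pcz-lowBL and control (median log2 ratio 1.68), each of them at the smallest p. Genes under 1 FPKM in control became members only through Pcz-lowBL and could not have come out lower. Most genes of the chromosome 20 run, with its control median of 0.494 FPKM, are of this kind. The runs on chromosomes 13 and 17 hold such genes too, with lowest control levels of 0.157 and 0.235 FPKM. The run on chromosome 11 from 33871916 to 34317988 went against Pcz alone: its 6 genes had a median log2 ratio of 0.74 in Pcz-lowBL and -0.62 in Pcz, where 4 were called lower and 0 higher. The difference between the groups was not tested.

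The longest run of lower genes held 9 genes on chromosome 5, from 37097569 to 37166202. Their medians were 2.40 FPKM in Pcz-lowBL and 5.42 FPKM in control, with log2 ratios from -1.16 to -0.58. The lowest level in Pcz-lowBL was 0.263 FPKM, and a gene under 1 FPKM there was a member only through control and could not have come out higher. In Pcz alone 8 of the 9 were called lower. 1 pair of loci in this run overlaps, so reads of that pair may be shared. On chromosome 4, from 1135404 to 1186167, a run of 6 lower genes included strongly expressed ones, with a highest level of 252 FPKM in Pcz-lowBL and 905 FPKM in control, and summed to 329 FPKM in Pcz-lowBL and 1096 FPKM in control. All 6 of these were called lower in Pcz alone as well.

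The authors' short list for this group held 2478 genes, 948 higher and 1530 lower (61.7%). It was recovered in full by taking genes at the smallest p of 5e-05 with a finite log2 fold change of at least 2 in either direction: 2478 genes met this and all 2478 were listed. Another 100 genes met the limits but were listed at 0 in a group and were left off. Of the listed genes, 2444 were members and 34 stayed under 1 FPKM in both groups.

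A few members could not be judged by the authors' test. The 61 members with status NOTEST had a median locus span of 277 bp, against 4042 bp for tested members. In control, 69 members were listed at 0, of which 53 were tested and 43 called higher. Their levels in Pcz-lowBL went up to 23.2 FPKM when the HIDATA genes are left out. In Pcz-lowBL, 49 members were listed at 0, of which 27 were tested and 21 called lower, with levels in control up to 116 FPKM. A member at 0 in a group reached 1 FPKM in the other, so the direction of these calls was set by the choice of members. No fold change was computed against a listed 0 without the pseudocount. At the 1 FPKM limit, the members just inside had a higher group value of 1.0004, 1.0005 and 1.0006 FPKM, with log2 ratios of 0.22, -0.29 and -0.60, and those just outside 0.9994, 0.9998 and 0.9999 FPKM, with -0.62, -0.44 and -0.10.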

How the data were processed

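Messenger RNA of seedlings was sequenced from stranded TruSeq libraries, as the labels' protocols state. The authors deposited Cuffdiff tables, per the file headers, with 1 pooled FPKM per group, with version, aligner and genome build not given in the sources used here. The deposited score is the Cuffdiff test statistic, and the p-value and q-value are the authors'. Short lists give the authors' log2 fold changes. Depth is unknown, since pooled FPKM keep no read totals, so no interval that needs it was computed. Control columns of the other tables differed from this one by median log2 ratios of -0.01 for Pcz, 0.00 for Pcz-BL-1h and -0.23 for Pcz-BL-8h.

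Members at 1 FPKM or more in either group were kept, and log2((FPKM + 1) ratios) were computed, which understate the change of weakly expressed genes. A call is an authors' q of 0.05 or less with status OK, adjusted over all tested genes of the table; direction came from the FPKM values. No fit per library could be made. The members, lists and tests were chosen with earlier results of these data known. The 36 gene lists written for product names could not be applied, since 0 of 54175 IDs matched the reference (59048 genes, assembly Glycine_max_v4.0). By the rule for that case, the 2 highest and 2 lowest called genes are named; Glyma13g07610, Glyma14g26450, Glyma19g06340 and Glyma19g06370 and the runs of genes were chosen after their values were seen. Of members on chromosomes, 6.78% overlap another locus. Python 3.11.15, pandas 2.3.3 and scipy 1.17.1 were used, and the normal-p alternative was run on simulated fold changes with normal errors. That run cannot show whether the errors in these data are normal.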

Additional observations from a re-analysis of the deposited data

How the results depend on the processing

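More members were lower than higher under every alternative run, but the counts moved. Calls from a normal p of each test statistic numbered 1953 higher and 3412 lower, and 2237 and 2872 once centred on the median fold change, which lay at -0.13. A 5 FPKM minimum left 2740 higher genes, against 4383 in the report. Taken by column header, from the table whose sheet is Pcz-BL-8h, 8388 members were called higher and 4731 were 2-fold higher; Glyma15g06270 turned to a log2 ratio of 0.74 (authors' q = 0.0632) and Glyma13g38240 stood at 0.22 (q = 0.561). Glyma10g33650 at 0.71 (q = 0.0222) and Glyma08g08761 at -0.92 (q = 0.00158) kept their direction and call there, against 4.97 and -7.92 in the report. A pseudocount of 5 FPKM left 922 members 2-fold higher and 1902 lower. The other counts stayed within 1.5 times of those reported. Beyond these settings the cause was not tested. No paired analysis was possible because the columns hold 1 pooled value per group and carry no replicate numbers; for the same reason no library could be left out. List medians were not run, since no ID was named. The shares of like neighbours were added after seeing the data: with a 2-fold minimum, 18.2% of higher genes and 19.4% of lower genes were followed by a gene of the same call, and with a 5 FPKM minimum 20.2% and 29.7%. These settings also change the share of all genes called: 3093 were higher and 5023 lower at 2-fold, and 2740 and 5311 at 5 FPKM. The neighbour shares here can therefore not be set against the 13.8% and 23.6% of the main setting.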
